A study of Homo sapiens with 6 samples.

Results

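Sugar breakdown in ALL-SIL cells was followed through 36 genes of glycolysis, the pentose phosphate pathway and pyruvate use. ALL-SIL is a human T-cell acute lymphoblastic leukaemia line, an established line grown here in culture. The genes were picked by pathway role, by matching the Ensembl identifiers of the files to gene symbols, and they are 36 of the 58096 genes listed. Of the 36, 34 had enough reads to be tested. PFKFB2 had no read in any library and PDK1 had 2 reads over all 6. The study compared total RNA of cells given JQ1, which competes with acetylated histones for the bromodomains of BET proteins, with cells given DMSO, its solvent, in 3 libraries each. JQ1 was used at 1 µM for 24 h, and the treatment text repeats that dose and time for the controls too, so the groups come from the sample titles. Nothing in the labels tells if replicates came from separate cultures, so p-values measure only how these libraries vary, and that variation may be technical. The libraries held 15925885 to 25293884 sense-strand gene counts.

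Glycolysis splits glucose in the cytosol into pyruvate. Carriers let glucose in, hexokinases trap it as glucose 6-phosphate, phosphofructokinase commits it, and the lower enzymes harvest ATP and NADH. Pyruvate is then either reduced to lactate and exported, or carried into mitochondria and oxidised by pyruvate dehydrogenase, which the PDK kinases switch off. The pentose phosphate pathway branches off at glucose 6-phosphate and yields NADPH and ribose 5-phosphate for nucleotides. Rapidly dividing lymphoblasts use both routes heavily, and the transcription factors MYC and HIF-1 are known inducers of many of these genes.

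JQ1-treated cells had less of the glucose carrier SLC2A3, the hexokinase HK2 and the lactate carrier SLC16A3, while SLC2A1 and SLC16A1 were not called. They also had less ALDOA, ENO1, PFKP, PFKM and GPI of glycolysis, less BPGM, and less RPIA and PGLS of the pentose phosphate pathway. They had more PDK3, ENO2, PGD, PFKFB3, HK1 and TALDO1. The edgeR quasi-likelihood test called 11 members lower and 6 higher at an adjusted p under 0.05, and 17 of the 34 passed in neither direction. Over all 13975 tested genes 20.6% were called lower and 15.9% higher, or 36.6% in all, beside 50% of the tested members. In bulk RNA, fewer cells of a type and less RNA per cell cannot be told apart. Their median log2 fold change was -0.08 with quartiles at -0.41 and 0.19, against a median of 0.00 with quartiles at -0.34 and 0.30 over all tested genes. The median thus lay near 0, and the 2 hexokinases and the 2 enolases were called in opposite directions. Libraries of the same replicate number deviated together, and blocking on that number in the fit gave 15 lower and 10 higher members, where 29.6% and 27.3% of all genes were called, or 56.9% in all. Groups did not overlap for 20 of the 34 tested members, against 48.9% of all tested genes. Of the called members, 8 lower ones and 3 higher ones kept their call in all 15 alternative settings. Without DMSO replicate 1 or without JQ1 replicate 2 only 3 members were called higher. Levels below are in CPM, a gene's count scaled to the TMM-adjusted library total, as mean ± SD over n = 3 libraries, with log2 fold changes of JQ1 over DMSO ± standard error (SE).

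**Figure D1:**
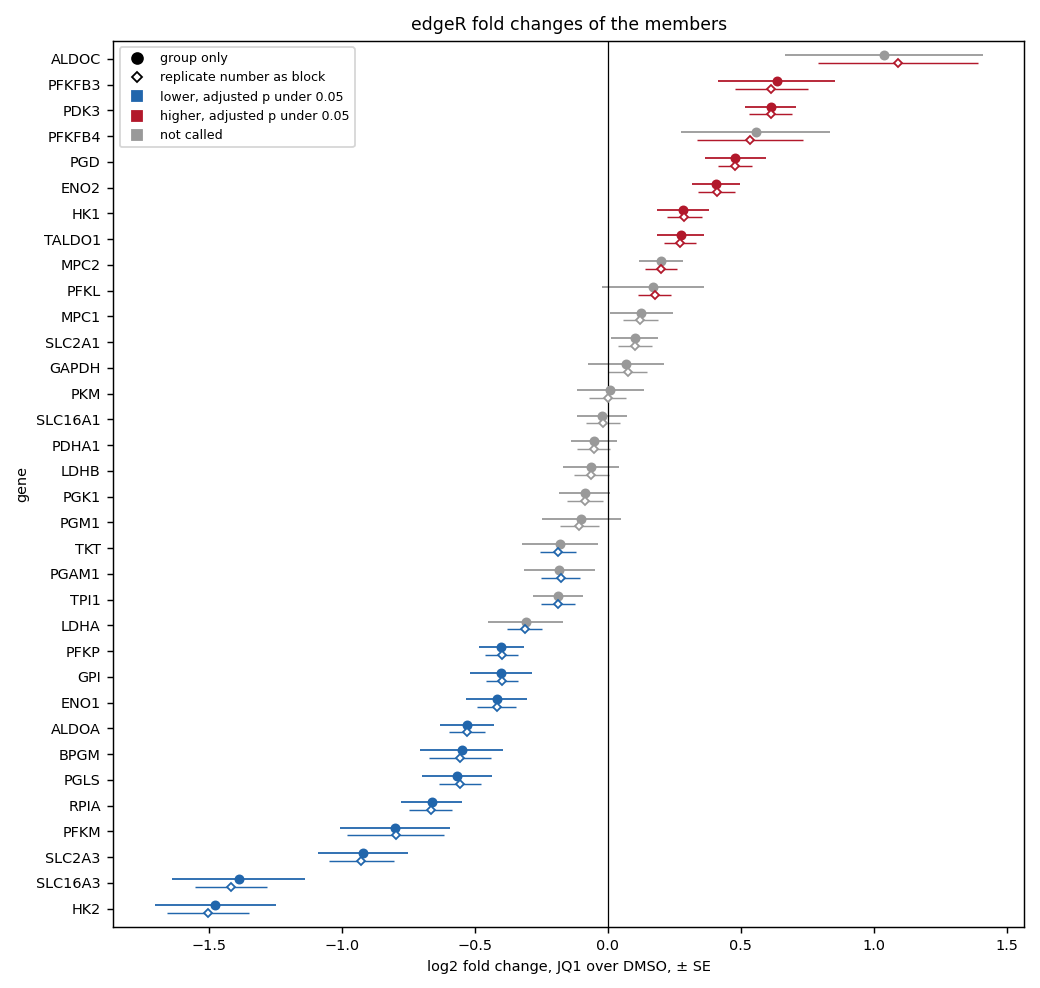
Log2 fold change of JQ1 over DMSO (x axis) of the 34 tested members (y axis, ordered by fold change), as circles for the test on group only and diamonds for the fit with the replicate number as block, with SE bars and coloured by the edgeR call. HK2 lies at one end at -1.48 and ALDOC at the other at 1.04, and more diamonds than circles are coloured as calls.

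The reads of all 36 members summed to 9645 ± 551 CPM in DMSO and 8704 ± 289 CPM in JQ1, a ratio of 0.90. Divided by exon length, as RPKM, the DMSO levels ran from 648 ± 93.3 for GAPDH and 485 ± 23.3 for ENO1 down to 0.349 ± 0.094 for PFKFB4 and 0.312 ± 0.169 for ALDOC. The first 6 genes in that order were GAPDH, ENO1, LDHB, ALDOA, PGK1 and TPI1, all enzymes of lower glycolysis, the aldolase step or lactate dehydrogenase. That order depends on the length used, the union of all annotated exons. It was 8571 bases for PKM, 6210 for LDHA and 9507 for TKT, against 2700 for TPI1. In CPM, LDHA (441), PKM (410) and TKT (384) lay above TPI1 (332) in DMSO. ALDOA and PGK1, at 158 ± 7.13 and 133 ± 1.49 RPKM in DMSO, changed places in JQ1, at 110 ± 7.41 and 125 ± 2.43. PGK1 and TPI1 lay close together in DMSO, at 133 ± 1.49 and 123 ± 5.50 RPKM, and LDHA and PGD could not be told apart by their spread, at 71.0 ± 10.1 and 68.2 ± 7.37. The called members ranged from ENO1 at 485 RPKM to PFKM at 0.660 RPKM in DMSO.

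**Figure D2:**
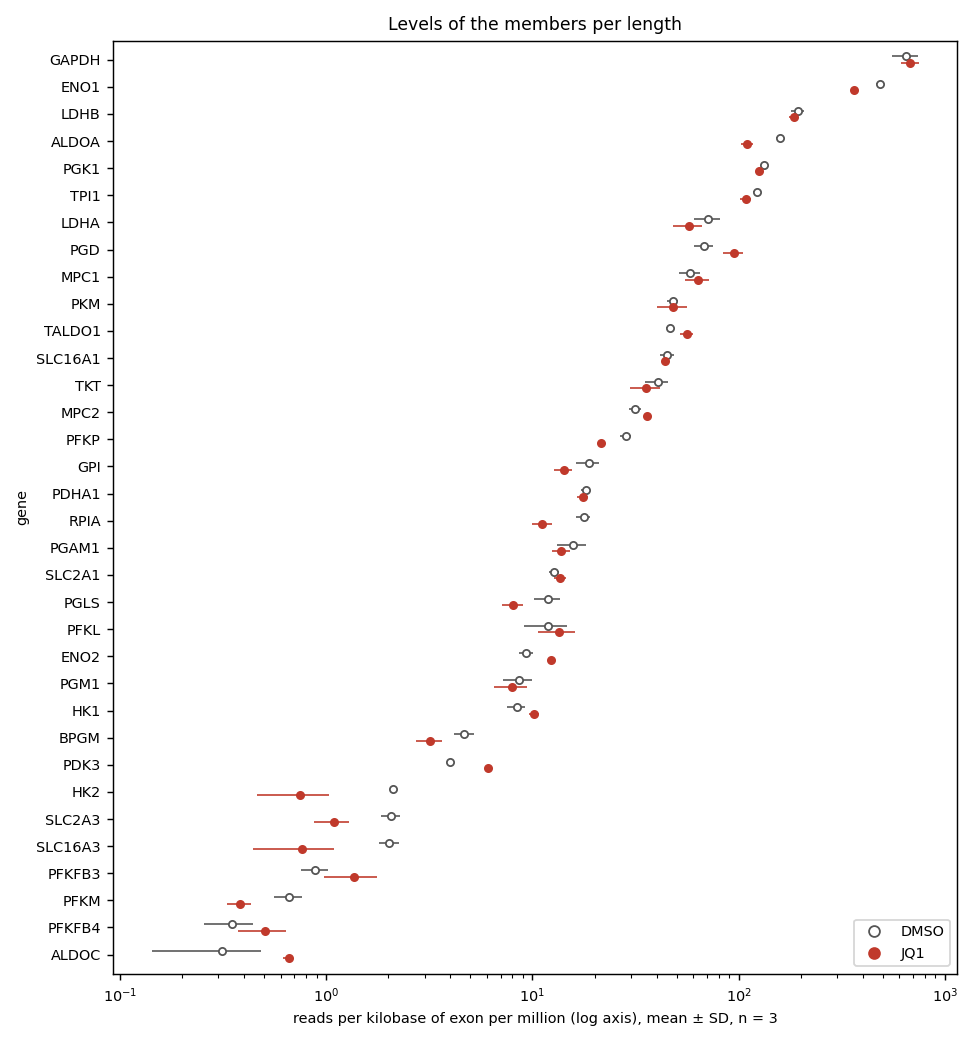
Length-scaled level in RPKM (log axis) of the 34 members above 0.1 RPKM in DMSO and in JQ1, in order of the DMSO level, as means with SD over 3 libraries. GAPDH stands at 648 RPKM and ALDOC at 0.312 RPKM in DMSO, and HK2 falls from 2.10 to 0.747.

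In the same libraries MYC fell from 358 ± 12.1 to 135 ± 14.8 CPM (log2 fold change -1.41 ± 0.10, edgeR adjusted p = 1.4e-05). HIF1A, the oxygen-regulated subunit of HIF-1, rose from 101 ± 1.54 to 141 ± 3.24 CPM (0.48 ± 0.08, adjusted p = 0.001). MYC with its partner MAX binds the E-box CACGTG, and HIF-1 binds sites with the core ACGTG or GCGTG. These letters were searched on both strands in RefSeq promoter windows of 300 bases (250 before and 50 after each annotated start, GRCh38.p14), which matched 33 members in 63 windows. SLC2A3, SLC16A1 and PFKFB2 had no entry. CACGTG occurred in 6 of the 63 member windows (9.52%) and in 7.26% of the 35116 windows of all genes. ACGTG occurred in 34.9% of member windows against 21.4%, and GCGTG in 42.9% against 36.5%. CACGTG contains ACGTG, so the first is counted again in the second, and base composition was not matched. The 6 members with CACGTG were HK2 and ALDOA, which fell, PFKFB3, which rose, and GAPDH, LDHA and ALDOC, which the edgeR test did not call. They are 18.2% of the 33 members, beside 8.77% of the 27305 genes with windows, and a gene with several windows has more chances of a match. By direction that is 2 of the 10 lower members with an entry, 1 of the 6 higher ones and 3 of the 16 not called. Counted by gene, ACGTG occurred in 54.5% of the 33 members against 24.9% of all genes with windows, and GCGTG in 66.7% against 40.6%. ACGTG was found in 7 of the lower members, 4 of the higher ones and 6 of those not called. For GCGTG these counts were 5, 4 and 13. The same limits on windows and base composition hold for these shares.

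The 250 bases before the HK2 start with the E-boxes (+ strand, chr2:74834920-74835169, GRCh38.p14) and before the GAPDH start (+ strand, chr12:6535014-6535263) are shown as examples of windows with CACGTG. Capitals mark CACGTG. The HK2 stretch holds it 194 and 149 bases before the start, and the GAPDH stretch holds it 81 bases before the start. HK2 has another annotated start, whose window at chr2:74833877-74834176 spans the first base of the gene (74833981) and has no CACGTG. Which start these cells use was not tested. ALDOA, LDHA and PFKFB3 also have windows without it.
HK2: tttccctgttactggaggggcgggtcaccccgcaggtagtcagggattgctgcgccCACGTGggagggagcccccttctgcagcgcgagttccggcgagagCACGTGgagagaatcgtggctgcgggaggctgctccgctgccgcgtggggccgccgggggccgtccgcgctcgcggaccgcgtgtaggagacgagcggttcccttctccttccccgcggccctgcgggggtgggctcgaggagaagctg
GAPDH: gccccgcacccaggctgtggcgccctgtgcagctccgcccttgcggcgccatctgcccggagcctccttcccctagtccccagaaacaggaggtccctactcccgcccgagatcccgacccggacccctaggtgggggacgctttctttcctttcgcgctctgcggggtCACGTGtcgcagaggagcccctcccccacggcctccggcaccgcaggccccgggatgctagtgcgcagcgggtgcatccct
For the other 4 genes 30 bases around each E-box are shown. They come from ALDOA (chr16:30064373-30064402), PFKFB3 (chr10:6202812-6202841), LDHA (chr11:18394366-18394395 and chr11:18394464-18394493) and ALDOC on the - strand (chr17:28577116-28577145).
ALDOA: tggcagggaggcCACGTGatccgagtcccc
PFKFB3: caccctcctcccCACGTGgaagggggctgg
LDHA first: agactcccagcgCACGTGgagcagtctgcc
LDHA second: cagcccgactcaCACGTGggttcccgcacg
ALDOC: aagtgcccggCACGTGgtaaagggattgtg
A match is a run of letters and does not show binding, which was not measured here.

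Glucose enters lymphoid cells through GLUT1 (SLC2A1) and GLUT3 (SLC2A3). SLC2A3 stood at 12.1, 14.3 and 11.8 CPM in DMSO replicates 1, 2 and 3 and at 7.11, 7.70 and 5.22 CPM in JQ1 replicates 1, 2 and 3, with means of 12.7 ± 1.36 and 6.68 ± 1.29 CPM. All 3 JQ1 libraries lay below all 3 DMSO libraries (log2 fold change -0.92 ± 0.17, edgeR adjusted p = 0.0021). The gene lies at chr12:7919230-7936275. GLUT1, the more abundant carrier per exon length, was at 61.1, 56.7 and 63.0 CPM in DMSO and 69.1, 60.5 and 64.3 CPM in JQ1, and these ranges overlapped (log2 fold change 0.10 ± 0.09, edgeR adjusted p = 0.41). Per exon length GLUT1 made up 86.8%, 83.8% and 87.4% of the pair in DMSO and 92.7%, 91.1% and 94.1% in JQ1.

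Hexokinase 2, the inducible and growth-associated hexokinase, had the most negative fold change of the 34 members. The HK2 level was 12.95, 12.5 and 12.8 CPM in the 3 DMSO libraries and 6.47, 3.19 and 3.93 CPM in the 3 JQ1 libraries, or 12.7 ± 0.264 and 4.53 ± 1.72 CPM. These CPM come from 263, 317 and 339 reads in DMSO and 160, 68 and 61 reads in JQ1, from the gene at chr2:74833981-74893359. The DMSO libraries were close together, the JQ1 libraries all lay lower, and JQ1 replicate 1 was the highest of them. HK2 was thus 2.78-fold lower (log2 fold change -1.48 ± 0.23, edgeR adjusted p = 0.00075). Hexokinase 1, the constitutive housekeeping form, moved the other way. For HK1, DMSO replicates 1, 2 and 3 had 46.8, 53.97 and 57.3 CPM and the JQ1 replicates 60.3, 65.6 and 66.6 CPM (52.7 ± 5.38 and 64.2 ± 3.39). The groups did not overlap (log2 fold change 0.28 ± 0.10, edgeR adjusted p = 0.044), but the call was lost without any 1 of DMSO replicates 1 and 2 and JQ1 replicates 1, 2 and 3 (log2 fold changes of 0.21 to 0.33, adjusted p 0.051 to 0.14). The summed hexokinase reads were 65.4 ± 5.28 CPM in DMSO and 68.7 ± 1.88 CPM in JQ1, so the makeup of the step differed while its sum stayed within the replicate spread. Per exon length HK1 made up 77.7%, 80.7% and 81.1% of the pair in DMSO and 90.0%, 95.2% and 94.2% in JQ1.

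**Figure D3:**
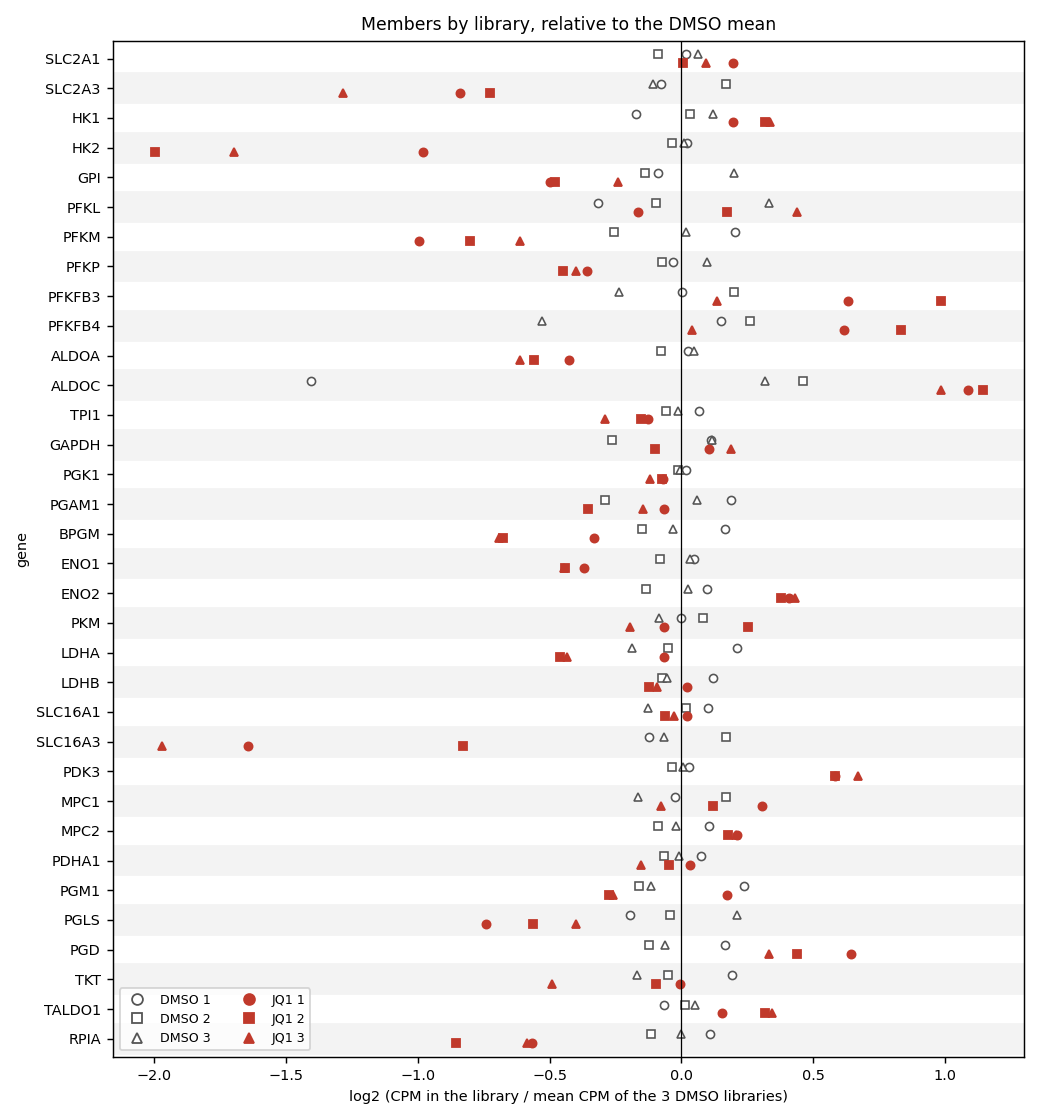
Log2 of the CPM in each library over the mean CPM of the 3 DMSO libraries (x axis) for the 34 tested members (y axis), with open symbols for DMSO, filled symbols for JQ1 and a marker shape for each replicate number. HK2, SLC2A3, SLC16A3 and RPIA have all JQ1 symbols to the left of the DMSO symbols, PDK3, PGD and ENO2 have them to the right, and GAPDH and LDHA overlap.

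Upper glycolysis carries glucose 6-phosphate to the triose phosphates. Its 6 enzymes with aldolase C included (GPI, PFKL, PFKM, PFKP, ALDOA, ALDOC) gave 4 lower calls and no higher one. Over all tested genes 20.6% were lower and 15.9% higher. The summed reads of the 6 were 1069 ± 78.5 CPM in DMSO and 809 ± 18.9 CPM in JQ1. ALDOA reads came to 632, 589 and 641 CPM in DMSO replicates 1 to 3, a mean of 620.4 ± 27.9, and to 462, 422 and 406 CPM in JQ1 replicates 1 to 3, a mean of 429.8 ± 29.02. The highest JQ1 library lay well under the lowest DMSO library for this aldolase, the main form in most tissues (log2 fold change -0.53 ± 0.10, edgeR adjusted p = 0.0026). PFKP stood at 134, 131 and 147 CPM in DMSO replicates 1, 2 and 3 and at 107, 101 and 104 CPM in JQ1 replicates 1, 2 and 3, with means of 137 ± 8.55 and 104 ± 3.26 CPM. The platelet-type phosphofructokinase thus also separated the groups fully (log2 fold change -0.40 ± 0.08, edgeR adjusted p = 0.0042). The GPI level was 188, 182 and 229 CPM in the 3 DMSO libraries and 141, 143 and 169 CPM in the 3 JQ1 libraries, or 199.8 ± 25.9 and 151 ± 15.4 CPM. Glucose-6-phosphate isomerase did not overlap either (log2 fold change -0.40 ± 0.12, edgeR adjusted p = 0.02), although its call was lost without DMSO replicate 3, JQ1 replicate 1 or JQ1 replicate 2 (-0.29, -0.35 and -0.36, adjusted p 0.058 to 0.075).

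The 3 phosphofructokinase genes encode subunits of 1 tetramer and did not move together. PFKM, the muscle-type subunit and the lowest of them per exon length, had 5.57, 4.05 and 4.89 CPM in DMSO and 2.42, 2.77 and 3.16 CPM in JQ1, with no overlap (log2 fold change -0.80 ± 0.21, edgeR adjusted p = 0.012). Reads on the strand opposite to PFKM, 607 in all libraries against 513 sense reads, were lower too (-0.55 ± 0.18, edgeR adjusted p = 0.037), and their part in the sense value was not tested. PFKM was the 1 lower call among the 16 members testable on the opposite strand, with 0 higher, where 10.3% of 7018 genes were lower and 7.54% higher, or 17.8% in all. For PFKL, DMSO replicates 1, 2 and 3 had 85.2, 99.4 and 134 CPM and the JQ1 replicates 94.7, 119.8 and 144 CPM (106 ± 24.98 and 119 ± 24.6). This liver-type subunit differed more between replicate numbers than between groups (log2 fold change 0.17 ± 0.19, edgeR adjusted p = 0.53), and the fit with the replicate block called it higher (0.18, adjusted p = 0.014). Aldolase C, the brain-type aldolase, had 7, 32 and 30 reads in DMSO and 48, 43 and 28 in JQ1, or 0.345, 1.26 and 1.14 CPM and 1.94, 2.02 and 1.80 CPM. All JQ1 libraries were above all DMSO libraries, and the test fell just outside its threshold (log2 fold change 1.04 ± 0.37, edgeR adjusted p = 0.051). ALDOC passed with the replicate block (1.09, adjusted p = 0.0029) and without DMSO replicate 2 (1.32, adjusted p = 0.042), while ALDOA made up 99.36% to 99.93% of the pair per exon length over the 6 libraries.

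Fructose 2,6-bisphosphate, made by the PFKFB enzymes, is the strongest activator of phosphofructokinase. PFKFB3 reads came to 5.42, 6.21 and 4.58 CPM in DMSO replicates 1 to 3, a mean of 5.40 ± 0.811, and to 8.37, 10.7 and 5.93 CPM in JQ1 replicates 1 to 3, a mean of 8.33 ± 2.39. PFKFB3, the form with the highest kinase over phosphatase activity, was called higher (log2 fold change 0.63 ± 0.22, edgeR adjusted p = 0.045), yet JQ1 replicate 3 lay below DMSO replicate 2. Its call was lost without DMSO replicate 1 (0.64), DMSO replicate 3 (0.53), JQ1 replicate 1 (0.64) or JQ1 replicate 2 (0.42), at adjusted p 0.09 to 0.18. PFKFB4 stood at 2.36, 2.55 and 1.48 CPM in DMSO replicates 1, 2 and 3 and at 3.27, 3.80 and 2.19 CPM in JQ1 replicates 1, 2 and 3, with means of 2.13 ± 0.574 and 3.09 ± 0.821 CPM. PFKFB4 overlapped between groups (log2 fold change 0.55 ± 0.28, edgeR adjusted p = 0.15) and passed with the replicate block (0.53, adjusted p = 0.023). PFKFB2 (chr1:207034366-207081024) was at 0 reads in all 6 libraries, where 3 reads would be 0.114 to 0.193 CPM.

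Lower glycolysis turns triose phosphates into pyruvate. The 8 members grouped here include BPGM, whose product is 2,3-bisphosphoglycerate. Of the 8, 2 were called lower (ENO1 and BPGM) and 1 higher (ENO2), beside 20.6% and 15.9% of all tested genes. The ENO1 level was 2642, 2416 and 2614 CPM in the 3 DMSO libraries and 1982, 1883 and 1876 CPM in the 3 JQ1 libraries, or 2558 ± 123 and 1914 ± 59.2 CPM. Enolase 1, the abundant form, was lower in every JQ1 library (log2 fold change -0.42 ± 0.12, edgeR adjusted p = 0.017), but passed neither without DMSO replicate 1 (-0.39, adjusted p = 0.05, rounded) nor without JQ1 replicate 3 (-0.40, adjusted p = 0.054). For ENO2, DMSO replicates 1, 2 and 3 had 42.8, 36.3 and 40.7 CPM and the JQ1 replicates 52.9, 51.9 and 53.8 CPM (39.9 ± 3.27 and 52.9 ± 0.956). Enolase 2, the form known from neurons, at chr12:6913745-6923698, separated the groups in the other direction (log2 fold change 0.41 ± 0.09, edgeR adjusted p = 0.0059). BPGM reads came to 13.3, 10.7 and 11.6 CPM in DMSO replicates 1 to 3, a mean of 11.9 ± 1.33, and to 9.42, 7.42 and 7.35 CPM in JQ1 replicates 1 to 3, a mean of 8.06 ± 1.17. Bisphosphoglycerate mutase, which makes the haemoglobin effector 2,3-bisphosphoglycerate, did not overlap either (log2 fold change -0.55 ± 0.16, edgeR adjusted p = 0.02). Its call was lost without DMSO replicate 1 (-0.46), JQ1 replicate 2 (-0.49) or JQ1 replicate 3 (-0.49), at adjusted p 0.062 to 0.075.

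The other 5 genes of lower glycolysis were not called. GAPDH stood at 2090.3, 1609.9 and 2093 CPM in DMSO replicates 1, 2 and 3 and at 2076, 1800.2 and 2198 CPM in JQ1 replicates 1, 2 and 3, with means of 1931 ± 278 and 2025 ± 204 CPM. GAPDH, the dehydrogenase often used as a reference transcript, varied more within a group than between groups (log2 fold change 0.07 ± 0.14, edgeR adjusted p = 0.75). The PKM level was 409.8, 433 and 387 CPM in the 3 DMSO libraries and 391, 489 and 358 CPM in the 3 JQ1 libraries, or 410.0 ± 23.4 and 413 ± 68.1 CPM. Pyruvate kinase M, the last enzyme of the route, had both its highest and its lowest library in the JQ1 group (log2 fold change 0.01 ± 0.13, edgeR adjusted p = 0.96). Gene counts do not separate its M1 and M2 forms. For PGK1, DMSO replicates 1, 2 and 3 had 741, 725 and 730.3 CPM and the JQ1 replicates 697, 697 and 674 CPM (732 ± 8.21 and 689 ± 13.4). Phosphoglycerate kinase 1 was lower in each JQ1 library by a small margin and was not called (log2 fold change -0.09 ± 0.10, edgeR adjusted p = 0.52). TPI1 reads came to 348, 319 and 329.9 CPM in DMSO replicates 1 to 3, a mean of 332 ± 14.8, and to 305, 299 and 272 CPM in JQ1 replicates 1 to 3, a mean of 292 ± 17.4. Triosephosphate isomerase likewise did not overlap (log2 fold change -0.19 ± 0.09, edgeR adjusted p = 0.15) and passed with the replicate block (-0.19, adjusted p = 0.015). PGAM1 stood at 45.95, 32.95 and 41.9 CPM in DMSO replicates 1, 2 and 3 and at 38.5, 31.5 and 36.4 CPM in JQ1 replicates 1, 2 and 3, with means of 40.3 ± 6.66 and 35.5 ± 3.59 CPM. For phosphoglycerate mutase 1 the groups overlapped (log2 fold change -0.18 ± 0.13, edgeR adjusted p = 0.31), and the block made it a lower call (adjusted p = 0.039). PGAM1 has close pseudogene copies, whose reads made up 3.12% to 4.82% of the reads of PGAM1 and the copies together.

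Lactate dehydrogenase joins A and B subunits, and MCT transporters export the lactate. The LDHA level was 510.1, 426 and 387 CPM in the 3 DMSO libraries and 421, 320.0 and 326 CPM in the 3 JQ1 libraries, or 441 ± 63.02 and 356 ± 56.5 CPM. The LDHA groups overlapped because DMSO replicate 3 lay below JQ1 replicate 1 (log2 fold change -0.31 ± 0.14, edgeR adjusted p = 0.11). In every pair of the same replicate number LDHA was lower in JQ1, the replicate block called it lower (-0.31, adjusted p = 0.00015), and so did the test without JQ1 replicate 1 (-0.45, adjusted p = 0.039). For LDHB, DMSO replicates 1, 2 and 3 had 627, 549 and 555 CPM and the JQ1 replicates 586, 529.8 and 541 CPM (577 ± 43.1 and 552 ± 29.6). LDHB, the more abundant subunit per exon length, showed overlapping groups (log2 fold change -0.06 ± 0.10, edgeR adjusted p = 0.67). SLC16A3 reads came to 16.7, 20.5 and 17.4 CPM in DMSO replicates 1 to 3, a mean of 18.2 ± 2.005, and to 5.82, 10.2 and 4.64 CPM in JQ1 replicates 1 to 3, a mean of 6.90 ± 2.95. MCT4, encoded by SLC16A3 and known as the exporter of strongly glycolytic cells, was 2.62-fold lower without overlap (log2 fold change -1.39 ± 0.25, edgeR adjusted p = 0.0024). SLC16A1 stood at 255, 241 and 218 CPM in DMSO replicates 1, 2 and 3 and at 242, 228 and 234 CPM in JQ1 replicates 1, 2 and 3, with means of 238 ± 18.6 and 235 ± 6.86 CPM. MCT1 (SLC16A1), at 44.8 RPKM against 2.02 RPKM for MCT4 in DMSO, did not separate the groups (log2 fold change -0.02 ± 0.09, edgeR adjusted p = 0.88).

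Pyruvate entry into mitochondria needs the MPC1 and MPC2 carrier and the pyruvate dehydrogenase complex, whose E1 alpha subunit is PDHA1. The PDK3 level was 20.2, 19.3 and 19.9 CPM in the 3 DMSO libraries and 29.7, 29.7 and 31.5 CPM in the 3 JQ1 libraries, or 19.8 ± 0.441 and 30.3 ± 1.07 CPM. Pyruvate dehydrogenase kinase 3, an inhibitor of that complex, was the higher call with the smallest p among the members (log2 fold change 0.61 ± 0.10, edgeR adjusted p = 0.0008). Its replicates were close together in both groups. PDK1 (chr2:172555373-172608669), the kinase known as a HIF-1 target, had 1 read in DMSO replicate 2 and 1 in JQ1 replicate 2. For MPC2, DMSO replicates 1, 2 and 3 had 86.1, 75.3 and 78.9 CPM and the JQ1 replicates 92.7, 90.6 and 92.5 CPM (80.1 ± 5.51 and 91.9 ± 1.17). The MPC2 groups did not overlap (log2 fold change 0.20 ± 0.08, edgeR adjusted p = 0.086), and the block made it a higher call (adjusted p = 0.0062). MPC1 reads came to 88.8, 101 and 80.4 CPM in DMSO replicates 1 to 3, a mean of 90.2 ± 10.5, and to 111, 98.05 and 85.5 CPM in JQ1 replicates 1 to 3, a mean of 98.3 ± 12.97. MPC1, the partner subunit, overlapped (log2 fold change 0.13 ± 0.12, edgeR adjusted p = 0.44). PDHA1 stood at 85.8, 77.9 and 81.2 CPM in DMSO replicates 1, 2 and 3 and at 83.6, 79.04 and 73.5 CPM in JQ1 replicates 1, 2 and 3, with means of 81.6 ± 4.001 and 78.7 ± 5.05 CPM. PDHA1 overlapped too (log2 fold change -0.05 ± 0.09, edgeR adjusted p = 0.67).

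In the pentose phosphate pathway 4 of 5 members were called, 2 in each direction, beside 36.6% of all tested genes. Of the other pentose phosphate and ribose genes 1 of 13 was called. The PGD level was 227, 186 and 194 CPM in the 3 DMSO libraries and 316, 274 and 255 CPM in the 3 JQ1 libraries, or 202 ± 21.8 and 282 ± 31.4 CPM. 6-phosphogluconate dehydrogenase, the NADPH-yielding enzyme at chr1:10398592-10420144, was higher in every JQ1 library (log2 fold change 0.48 ± 0.11, edgeR adjusted p = 0.0084). For PGLS, DMSO replicates 1, 2 and 3 had 29.6, 32.9 and 39.3 CPM and the JQ1 replicates 20.3, 22.95 and 25.7 CPM (33.9 ± 4.91 and 22.99 ± 2.72). 6-phosphogluconolactonase, which acts just before PGD, was lower without overlap (log2 fold change -0.57 ± 0.13, edgeR adjusted p = 0.0072). RPIA reads came to 35.3, 30.2 and 32.7 CPM in DMSO replicates 1 to 3, a mean of 32.7 ± 2.53, and to 22.1, 18.1 and 21.8 CPM in JQ1 replicates 1 to 3, a mean of 20.7 ± 2.24. Ribose 5-phosphate isomerase, which makes the nucleotide precursor, was lower by a wider margin (log2 fold change -0.66 ± 0.12, edgeR adjusted p = 0.0015) and lies at chr2:88691644-88750935. TALDO1 stood at 133, 140.4 and 144 CPM in DMSO replicates 1, 2 and 3 and at 155, 173 and 177 CPM in JQ1 replicates 1, 2 and 3, with means of 139 ± 5.86 and 168 ± 11.6 CPM. Transaldolase, of the branch that returns sugars to glycolysis, was called higher without overlap (log2 fold change 0.27 ± 0.09, edgeR adjusted p = 0.034). The TALDO1 call was lost without DMSO replicate 1 (0.24), DMSO replicate 2 (0.28), JQ1 replicate 2 (0.25) or JQ1 replicate 3 (0.24), at adjusted p 0.073 to 0.12. The TKT level was 439.6, 371 and 342 CPM in the 3 DMSO libraries and 383, 359.9 and 273 CPM in the 3 JQ1 libraries, or 384 ± 50.01 and 339 ± 57.7 CPM. Transketolase, the partner enzyme of that branch, overlapped between groups (log2 fold change -0.18 ± 0.14, edgeR adjusted p = 0.35) and became a lower call with the block (-0.19, adjusted p = 0.018). For PGM1, DMSO replicates 1, 2 and 3 had 42.6, 32.3 and 33.3 CPM and the JQ1 replicates 40.7, 29.8 and 30.1 CPM (36.05 ± 5.66 and 33.5 ± 6.20). Phosphoglucomutase 1, which links glucose 6-phosphate to glycogen, overlapped and was not called (log2 fold change -0.10 ± 0.15, edgeR adjusted p = 0.64).

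Read ratios within a library compare forms of 1 step without regard to library scaling, and 6 of the 11 pairs examined did not overlap between groups. Among single genes 48.9% of all tested ones did not overlap, and no such share was computed for ratios of other genes. Each of the 6 pairs holds a gene called on the same counts, so the ratios draw on the reads behind those calls. The log2 ratio of HK1 to HK2 reads went from 2.04 ± 0.17 in DMSO to 3.88 ± 0.59 in JQ1, a 3.58-fold shift. That of ENO1 to ENO2 went from 6.003 ± 0.05 to 5.18 ± 0.05, or 1.77-fold, with the tightest replicates of the 11. In JQ1 both steps held relatively more of the form that was called higher. The other ratios without overlap were ALDOA to ALDOC (-1.78), SLC16A1 to SLC16A3 (1.45), SLC2A1 to SLC2A3 (1.04) and PFKM to PFKL (-0.96). Each of these 6 reached p = 0.10 in the exact 2-sided permutation test, the smallest value that 3 against 3 libraries allow, and 0.18 after Benjamini-Hochberg adjustment over the 11 pairs. The differences were -0.25 for LDHA to LDHB, -0.58 for PFKP to PFKL, 0.06 for PFKFB3 to PFKFB4 and -0.08 for MPC1 to MPC2, all with overlap. Within pairs of the same replicate number PFKP to PFKL was lower in JQ1 in all 3 (-0.48, -0.65 and -0.60), and so was LDHA to LDHB (-0.18, -0.36 and -0.21). The pairs went both ways for PFKFB3 to PFKFB4 and for MPC1 to MPC2. The PDK1 to PDK3 ratio rests on the 2 PDK1 reads and is not interpretable.

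**Figure D4:**
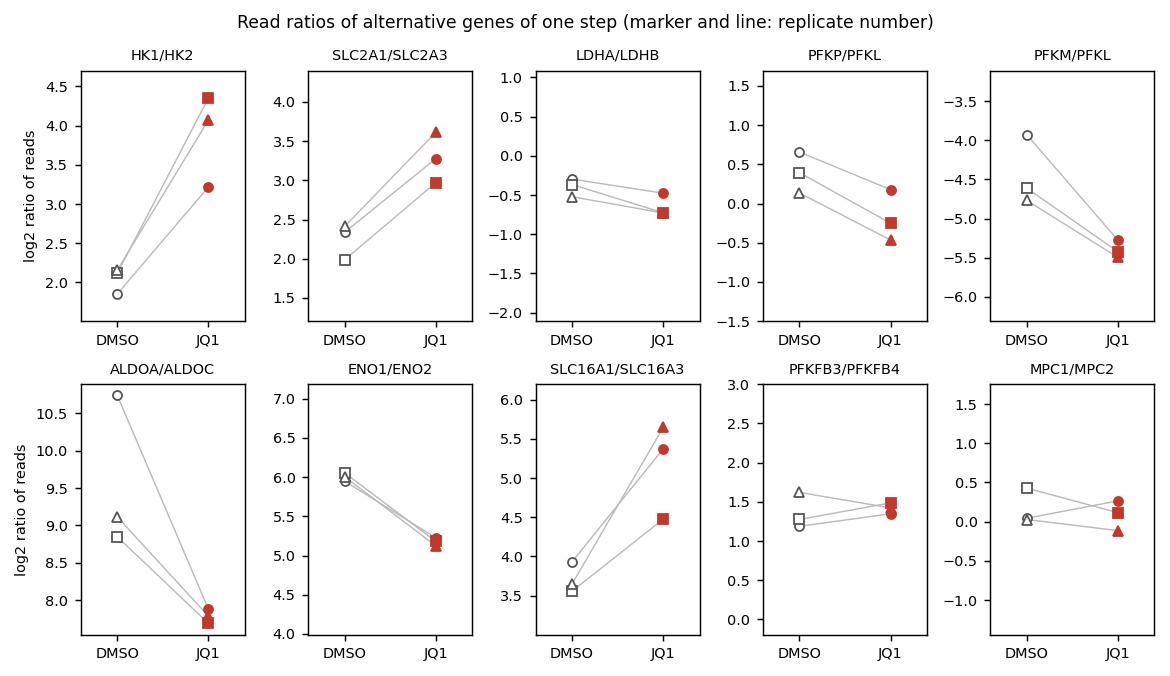
Log2 ratio of the reads of 2 genes of the same step in each library, with 1 panel for each pair except PDK1/PDK3, 1 point per library, lines that join libraries of the same replicate number and an axis range of its own in each panel. The HK1/HK2 points lie near 2.04 in DMSO and 3.88 in JQ1, and the ENO1/ENO2 points near 6.003 and 5.18.

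Genes next to the members in the same pathways moved in mixed directions as well. For the lists below, the shares over all tested genes were 15.9% higher and 20.6% lower, or 27.3% and 29.6% with the replicate block. Of 25 other genes of glycolysis and gluconeogenesis 7 were tested, with 4 higher, 2 lower and a median log2 fold change of 0.31. The higher count was 1 without DMSO replicate 3 or JQ1 replicate 2, and 2 without JQ1 replicate 1. BSG, the chaperone that brings MCT1 and MCT4 to the membrane, rose from 215 ± 23.1 to 317 ± 46.2 CPM (0.56 ± 0.13, edgeR adjusted p = 0.0066). MCT2 (SLC16A7), another lactate and pyruvate carrier, fell from 43.0 ± 4.32 to 26.2 ± 2.96 CPM (-0.72 ± 0.12, adjusted p = 0.00099). Of 15 other pentose phosphate and ribose genes 13 were tested, with 1 higher, none lower and a median of 0.04, and the block called 2 lower. The count of higher genes in that list was 0 without DMSO replicate 1, DMSO replicate 2, JQ1 replicate 2 or JQ1 replicate 3.

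Of 21 other genes of pyruvate dehydrogenase and pyruvate use 14 were tested, with 1 higher, 4 lower and a median of 0.01, and 2 were lower without JQ1 replicate 1. The pyruvate dehydrogenase core subunits DLAT (-0.55 ± 0.13, edgeR adjusted p = 0.0072) and PDHX (-0.53 ± 0.10, adjusted p = 0.0028) fell. PDHB, the E1 beta subunit, was called higher (0.32 ± 0.09, edgeR adjusted p = 0.024), a call lost without DMSO replicate 2 (0.28), DMSO replicate 3 (0.27), JQ1 replicate 1 (0.30) or JQ1 replicate 3 (0.31). All 21 citric acid cycle genes were tested, with 4 higher, 4 lower and a median of -0.04. The block called 7 of them higher, and 2 were lower without JQ1 replicate 2. OGDH, a subunit of the 2-oxoglutarate dehydrogenase complex, rose from 91.3 ± 7.62 to 162 ± 7.22 CPM (0.83 ± 0.09, edgeR adjusted p = 0.00011), and malate dehydrogenase 2 (MDH2) fell (-0.50 ± 0.10, adjusted p = 0.0034). Of 28 regulators of glucose use 26 were tested, with 3 higher, 3 lower and a median of 0.05, and the replicate block called 11 higher and 8 lower. TXNIP, an inhibitor of glucose uptake, had 159 ± 78.8 and 262 ± 110 CPM (0.73 ± 0.42, edgeR adjusted p = 0.23) and passed with the block (0.76, adjusted p = 3.1e-08) and without DMSO replicate 2 (1.2, adjusted p = 0.047).

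**Figure D5:**
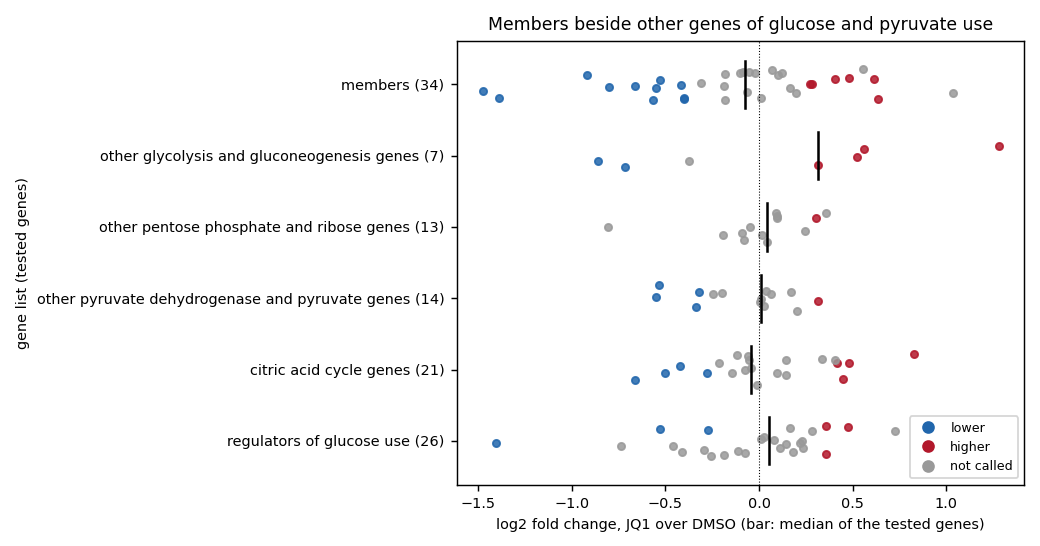
Log2 fold change of JQ1 over DMSO (x axis) of every tested gene of the member set and of the 5 related lists (y axis), as points coloured by call, with a bar at each list's median. The member median is -0.08 and that of the other lists lies between -0.04 and 0.31.

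The cell identity was checked on marker lists. Of 14 T-lineage and ALL-SIL markers none was at 0 over the 6 libraries together. PTCRA had 0 reads in DMSO replicate 3 and JQ1 replicate 3, and CD2 had 3, 1 and 0 reads in JQ1 replicates 1, 2 and 3. The sum of the 14 markers ran from 1760 to 1980 CPM in DMSO and from 1090 to 1380 CPM in JQ1. Of the 13 tested, 11 were called lower and 1 higher (TLX1), beside 20.6% and 15.9% of all tested genes. B-cell markers summed to 11.5 to 24.5 CPM in DMSO and 1.61 to 6.34 in JQ1, with 2 of 6 at 0, and stromal markers to 7.83 to 10.6 and 2.51 to 3.33, with 4 of 6 at 0. Nearly all of the B-cell sum was CD79A (8.15 ± 4.13 CPM in DMSO and 2.94 ± 2.32 in JQ1) and CD79B (8.80 ± 2.69 and 1.23 ± 0.41). Nearly all of the stromal sum was 1 gene, PDGFRB (9.16 ± 1.37 and 3.01 ± 0.47 CPM). Myeloid markers summed to at most 0.493 CPM and red cell markers to at most 0.0393 CPM. The part of these marker shifts in the members' values was not tested.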

How the data were processed

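The deposited values are raw gene counts that the authors did not normalise, with 3 columns per library (unstranded and either strand). Reads were aligned to GRCh38, as the submitters' processing notes state. No header or label names the aligner or annotation release, which are thus not given in the sources used here. The layout is that of STAR gene counts, which leave out reads that map to several places, so genes with near-identical copies are undercounted. Per the labels' protocols the libraries were stranded. The reverse-strand column was used since its gene counts exceeded those of the forward strand by a factor of 20.9 to 22.6. The first 4 lines are read classes and stayed out: unmapped (1.48% to 1.99% of reads), multimapping (14.1% to 15.7%), outside genes (18.8% to 26.1%) and ambiguous (3.38% to 3.88%). Of the 58096 identifiers 57447 matched GENCODE release 29, 53706 of them with version, and positions are printed only for those; the 649 unmatched ones took up to 0.0327% of gene counts. All 36 members matched. Promoter sequences are from RefSeq (GRCh38.p14).

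Genes were kept with filterByExpr (minimum count 10, minimum total 15) and scaled by TMM, and the quasi-likelihood test of edgeR 4.0.16 (robust glmQLFit with group as the only term, then glmQLFTest) was run in R 4.3.3. Adjustment was by Benjamini-Hochberg over all 13975 tested genes, with calls at an adjusted p under 0.05. The SE was taken as |log2 fold change| / √F. RPKM here is CPM per kilobase of the union of annotated exons. Read ratios had 0.5 added to each count. The members, the related lists, the marker lists and the rule for named genes (all members, and up to 4 genes per related list with the smallest p, plus MYC, HIF1A and TXNIP) were chosen with earlier results of these data known. A gene that the rule names is not reported here. Replicates of a group differed by more than sampling noise (chi-square per degree of freedom 15.4 to 31.9). Across genes, same-numbered libraries deviated from their group means alike (correlations of 0.326, 0.433 and 0.371 for numbers 1, 2 and 3, and -0.247 to -0.139 otherwise), so the numbers were taken as pairs. This pairing was read from the data and is not stated in the labels. Deviations from a group mean sum to 0 over its 3 libraries, so positive values for same-numbered libraries force negative ones elsewhere. Alternatives were DESeq2 1.42.0, limma-voom (limma 3.58.1), relative log expression factors, library size only, no filter, at least 1 CPM in 3 libraries, unstranded counts, pseudogene counts added, the replicate block and each library left out. On simulated data with 13975 genes 64% of 100 genes changed 2-fold and 45% of 100 changed 1.5-fold were called, and 0.0436% of unchanged ones. The simulation left 13775 genes unchanged, whereas 5110 genes were called in the data. The Benjamini-Hochberg threshold depends on how many genes change, so these rates do not carry over to the data.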

Additional observations from a re-analysis of the deposited data

How the results depend on the processing

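Across the member, list and all-gene counts, 111 values under other settings stayed within 1.5 times the main count and 15 did not; with 1 library left out the numbers were 69 and 15. With the replicate block 3813 genes of all, 10 members, 3 other pyruvate genes, 7 citric acid cycle genes and 11 regulators were higher, and 2 other pentose phosphate genes and 8 regulators were lower. With library size only 3 members, 0 other pentose phosphate genes and 0 other pyruvate genes were higher, and 1 other pentose phosphate gene and 5 regulators were lower; the median of all genes moved to -0.059. For the other pentose phosphate genes limma-voom and the unfiltered test called 0 higher, and unstranded counts called 1 lower. Leaving out 1 library gave 3 to 5 members higher, 1 to 3 other glycolysis genes higher, 0 to 1 other pentose phosphate genes higher, 0 to 1 other pyruvate genes higher and 2 to 4 lower, and 2 to 3 citric acid cycle genes lower.

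Log2 fold changes near 0 changed sign: PKM was -0.05 with library size only, -0.01 with limma-voom, without the filter and with unstranded counts, and 0.00 (below 0 before rounding) with the block, and with 1 library left out the ranges were -0.13 to 0.10 for PKM, -0.04 to 0.15 for GAPDH, -0.11 to 0.00 (above 0 before rounding) for LDHB, -0.08 to 0.03 for SLC16A1 and -0.26 to 0.04 for PGM1. Among the ratios the ranges crossing 0 were -0.87 to 0.13 for PDK1/PDK3, -0.03 to 0.19 for PFKFB3/PFKFB4 and -0.17 to 0.05 for MPC1/MPC2. With library size only the calls of HK1 (0.22), PFKFB3 (0.57) and TALDO1 (0.21) were lost, and with unstranded counts likewise (0.27, 0.62 and 0.26). Without the filter HK1 (0.26) and TALDO1 (0.25) lost their calls and LDHA gained one (-0.33). ALDOC passed with DESeq2 (1.06), relative log expression factors (1.05), limma-voom (1.2), no filter (1.02) and unstranded counts (1.09). PDHB (0.26) was not called with library size only. The cause of these shifts was not tested. Beyond the calls given with their genes, the block changed no other member call. Fewer than about 10 reads in 3 libraries left a gene untested, so a change in PDK1 or PFKFB2 was not detectable at this depth.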

Other observations

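Further genes of the related lists were called. In the citric acid cycle DLST, the E2 subunit of 2-oxoglutarate dehydrogenase, rose together with OGDH, the E1 subunit of the same complex (DLST from 71.7 ± 6.21 to 99.98 ± 9.67 CPM, log2 fold change 0.48 ± 0.10, edgeR adjusted p = 0.0045). IDH3B, a subunit of the NAD-dependent isocitrate dehydrogenase, fell from 77.2 ± 4.19 to 57.6 ± 3.13 CPM (-0.42 ± 0.09, edgeR adjusted p = 0.0035). The mitochondrial malic enzyme ME2, which makes pyruvate from malate, was at 138 ± 3.56 CPM in DMSO and fell to 109.8 ± 7.35 CPM (-0.33 ± 0.08, edgeR adjusted p = 0.011), and JQ1 replicate 1 was needed for its call (-0.29 and adjusted p = 0.056 without it). ADPGK, the ADP-dependent glucokinase, rose from 94.4 ± 8.49 to 117 ± 3.29 CPM (0.31 ± 0.09, edgeR adjusted p = 0.02), and its call was lost without DMSO replicate 3 (0.25), JQ1 replicate 1 (0.32) or JQ1 replicate 2 (0.29). ENO3, the muscle enolase, had 3.76 ± 1.08 and 2.05 ± 0.29 CPM (-0.86 ± 0.25, edgeR adjusted p = 0.022) and lost its call without DMSO replicate 3 (-0.59) or JQ1 replicate 3 (-0.77). The kinase AKT2, which promotes glucose uptake, fell from 110.4 ± 10.4 to 76.7 ± 4.48 CPM (-0.53 ± 0.09, edgeR adjusted p = 0.0018), and HIF1AN, an inhibitor of HIF-1, rose from 94.9 ± 4.40 to 122 ± 7.43 CPM (0.36 ± 0.09, adjusted p = 0.0082). RBKS, the ribokinase, was not called (-0.80 ± 0.30, edgeR adjusted p = 0.06) and passed with the block (-0.81, adjusted p = 0.04), and TIGAR (0.24 ± 0.17, adjusted p = 0.3) and IDNK (0.36 ± 0.26, adjusted p = 0.31) were not called.

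PFKFB2 had 217 reads on its opposite strand, where YOD1 lies (11.8 ± 1.2 CPM in DMSO and 9.87 ± 1.3 in JQ1). ITGA6, next to PDK1, had 9.99 ± 3.30 and 10.9 ± 5.06 CPM while PDK1 had 2 reads. GAPDH had 262504 sense reads over all libraries and 142491 when strand was disregarded. Of the 15 members with annotated pseudogenes GAPDH had the most, 61. Their reads made up 0.094% to 0.175% of the reads of GAPDH and these pseudogenes together. Adding pseudogene reads to each member moved TPI1 to -0.17 and left PGAM1 at -0.18. In GENCODE release 29, 42.3% of the ALDOA exon bases and 33.4% of the LDHB exon bases also belong to another gene of the same strand, which has no row among the genes used here, so the levels of ALDOA and LDHB carry that uncertainty. The shared part was 5.07% for GPI, 4.73% for PFKFB4 and 2.48% for PFKP.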
